A study of Mus musculus with 28 samples.

Results

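The 6 germ-free (GF) mouse libraries given an antibody against CD3 (aCD3) were divided by their level of Lag3, an inhibitory receptor of T cells that binds MHC class II. Libraries with a Lag3 level of at least 100 TPM were placed in a Lag3-high set and the others in a Lag3-low set. TPM is the length-corrected share of a library taken by a gene. The rule gave 3 Lag3-high and 3 Lag3-low libraries, 6 of the 28 in the series. The Lag3-high set held males M1, M2 and M5, with Lag3 at 498, 452 and 527 TPM. The Lag3-low set held female F1 and males M3 and M4, with Lag3 at 9.59, 17.0 and 12.3 TPM. The library just inside the threshold was M2 and the one just outside was M3. Since both sets were selected on a measured value of the same libraries, no test was run between them, and differences between the sets are given as a description.

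Each library was made from sorted live lamina propria T cells of the small intestine, gated on CD45, CD90.2, TCRb and CD4. Every mouse, controls included, carried the T-bet-ZsGreen genotype, a fluorescent reporter of the transcription factor T-bet. GF mice have no gut flora, and specific-pathogen-free (SPF) mice have one. Beside the 6 GF aCD3 libraries, 10 came from GF mice given the isotype control antibody (5 females, 5 males), 6 from SPF mice given aCD3 and 6 from SPF mice given isotype (each 3 females, 3 males). Whether each library is from a separate animal is not stated in the labels, so p-values measure the spread between libraries, which may be technical. Dose, time after injection and age were not used here. In bulk libraries fewer cells of a type and less RNA per cell cannot be told apart.

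An antibody against CD3 engages the T cell receptor complex. Depending on dose, timing and the state of the cell, it makes T cells divide and secrete cytokines, lose receptor from the surface, die, or take up a regulatory program. Type 1 regulatory (Tr1) cells are CD4+ T cells that make the cytokine IL-10 without needing Foxp3, and Lag3 is among the surface proteins used to recognise them.

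Depth overlapped between the sets. Reads in genes numbered 7804789, 12272926 and 8155660 in M1, M2 and M5, and 11166217, 17793824 and 9778473 in F1, M3 and M4. Values of the Lag3-high set are given below in the order M1, M2, M5, and those of the Lag3-low set in the order F1, M3, M4. The sample numbers in the column names form 2 blocks: 25 to 33 holds M1, M2 and M3, and 48 to 54 holds M5, F1 and M4, so each block has libraries of both sets. The SPF columns carry numbers 1 to 12, so colonisation and sample number cannot be told apart. Across the 12182 tested genes, Pearson's r between libraries, as a description, was 0.952 to 0.963 within the Lag3-high set, 0.948 to 0.956 within the Lag3-low set and 0.888 to 0.911 between the sets. The 69 replication-dependent histone genes took 23.43%, 23.05% and 25.97% of listed TPM in the Lag3-high set and 5.39%, 7.46% and 6.43% in the Lag3-low set. By reads, histone genes took 1.62%, 1.57% and 1.91% against 0.29%, 0.35% and 0.33%, since the length that divides the reads is the whole genomic span of a gene and histone genes have no introns. A larger share for some genes leaves a smaller one for the others, so the median gene is given too. It differed by -0.38 on the log2(TPM + 1) scale between the Lag3-high and the Lag3-low set. After scaling by median of ratios the median gene differed by -0.02, and values under that scaling are given where they turn a direction.

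Most genes that differed by at least 1 log2 unit between the sets differed in the same direction in the aCD3 response of SPF mice, which was measured in 12 libraries that had no part in the split. Among tested genes, 473 (3.88%), Lag3 among them, were at least 1 log2 unit higher in the Lag3-high set with no overlap between the sets, and 1340 (11%) were at least 1 unit lower. With no minimum difference the sets did not overlap for 1458 genes (12%) that were higher and 6209 (51%) that were lower. Under median of ratios those counts were 3381 and 3374 of the 12182 tested genes, and with the minimum difference 828 and 450. Counts of list members under that scaling are to be read against the counts with no minimum difference. Without F1, the female library, 466 genes were at least 1 unit higher and 1552 at least 1 unit lower with no overlap, in 5 male libraries. In SPF mice 1722 genes (14.1%) were higher with aCD3 than with isotype and 6216 (51%) were lower (limma, adjusted p under 0.05); under median of ratios the split was 3690 and 3644. Of the 472 genes higher in the Lag3-high set beside Lag3, 456 (96.6%) rose in SPF mice, 0 fell and 16 did not pass the threshold; the 456 are 26.5% of those that rose. Of the 1340 lower genes, 1225 (91.4%) fell in SPF mice, 0 rose and 115 did not pass; the 1225 are 19.71% of those that fell. Over 12181 genes, Lag3 left out, the difference between the sets and the SPF log2 fold change had a Pearson's r of 0.812 and a Spearman's rho of 0.825, given as a description, since genes are not independent replicates. The slope of the former on the latter was 0.79.

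Each library was placed on the line that runs from the mean SPF isotype profile (0) to the mean SPF aCD3 profile (1), without Lag3. The Lag3-high libraries stood at 0.773, 0.823 and 0.899. The Lag3-low libraries stood at -0.014, 0.004 and -0.013, inside the range of the 10 GF isotype libraries, which was -0.082 to 0.106. SPF aCD3 libraries, each left out of the line it was placed on, stood at 0.913 to 1.017, and SPF isotype libraries at -0.041 to 0.277. The 3 Lag3-high libraries lay below the lowest SPF aCD3 library and above every isotype library on this line. For 7213 genes (59.2%) all 3 Lag3-low values lay inside the GF isotype range, and for 2650 genes (21.8%) all 3 Lag3-high values did. For 3285 genes (26.97%) all 3 Lag3-high values lay inside the SPF aCD3 range.

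**Figure D1:**
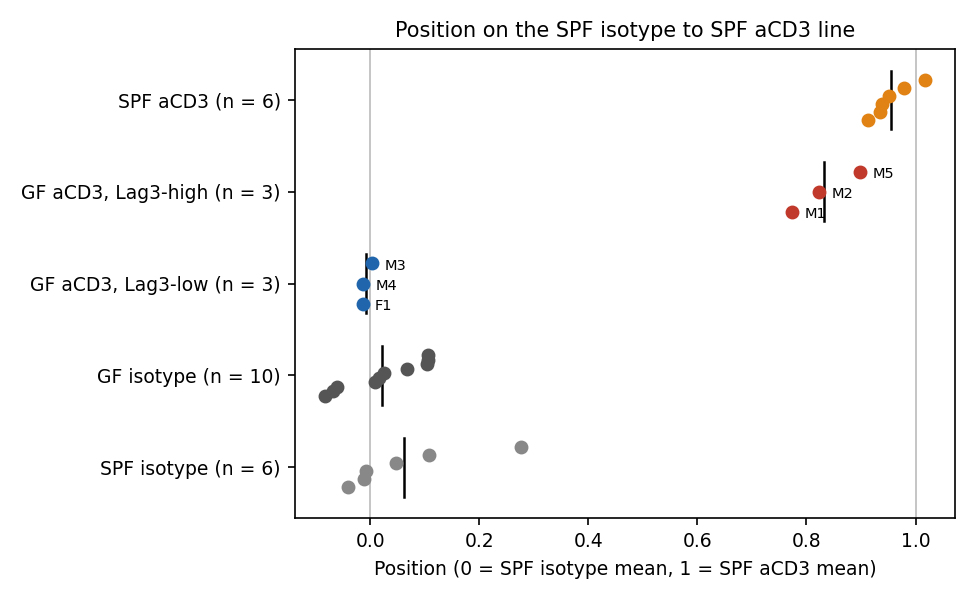
Position of each of the 28 libraries on the line from the SPF isotype mean (0) to the SPF aCD3 mean (1); points are libraries, the vertical bar is the group mean, and the 6 GF aCD3 libraries are named. Lag3-low libraries sit among the isotype groups near 0 and Lag3-high libraries between 0.773 and 0.899.

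Il10 and several other cytokine and chemokine genes were higher in the Lag3-high set. Il10 (NM_010548, chromosome 1, 131019845 to 131024970 in mm10), the cytokine of Tr1 cells, was at 403, 588 and 630.0 TPM in the Lag3-high set and 93.5, 109 and 141 TPM in the Lag3-low set. The sets did not overlap, differed by 2.23 on the log2 scale, and the Lag3-low values lay inside the GF isotype range of 44.3 to 165 TPM. In SPF mice Il10 rose by 2.81 (SE 0.11, limma adjusted p = 5.56e-09, higher in 6 of 6 libraries). Ccl3 (NM_011337, chromosome 11, 83647843 to 83649378), a chemokine for macrophages and T cells, was at 197, 267 and 369.7 TPM against 29.6, 15.8 and 10.9 TPM, and its neighbour in function Ccl4 at 219.8, 326 and 412 TPM against 84.6, 42.4 and 51.5 TPM. Of the 9 chemokine genes tested 4 were higher and 3 lower in the Lag3-high set, against 12% and 51% of all tested genes. In SPF mice 5 rose and 2 fell, against 14.1% and 51% of all tested genes. Ccl3 and Ccl4 had the widest differences of that list, 3.88 and 2.42, and in SPF mice both rose, by 3.56 (limma adjusted p = 3.81e-08) and 3.27 (limma adjusted p = 2.21e-06). Cxcl10, a ligand of Cxcr3, was lower, at 39.8, 51.8 and 26.4 TPM against 66.3, 128 and 93.7 TPM, and fell by 1.503 in SPF mice (limma adjusted p = 1.58e-05). Ccl5 and Xcl1, described with other genes, were the other lower members. Il21, a helper cytokine that acts on B cells and T cells, was at 130.0, 108 and 83.8 TPM against 31.2, 53.7 and 50.4 TPM, and Areg, an epidermal growth factor family ligand used in tissue repair, at 45.3, 74.3 and 92.5 TPM against 6.89, 24.4 and 17.3 TPM. Csf1, the growth factor of macrophages, was at 23.2, 19.6 and 18.9 TPM against 0.66, 3.198 and 1.73 TPM. Penk, which encodes the enkephalin precursor, was at 61.8, 64.7 and 50.1 TPM against 1.58, 17.9 and 6.78 TPM.

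Among 16 tested Tr1-associated genes, 4 were higher and 4 lower in the Lag3-high set without overlap, against 12% and 51% of all tested genes. The median difference was 0.06. Under median of ratios 11 were higher and 2 lower, against 3381 and 3374 of all 12182 tested genes, with a median of 0.49. In SPF mice 10 of the 16 rose and 3 fell, against 14.1% and 51% of all tested genes. Beside Il10 and Il21, the higher members included Nfil3, a basic leucine zipper transcription factor, at 48.5, 53.7 and 52.5 TPM against 10.8, 28.8 and 16.95 TPM. Irf1, an interferon-induced transcription factor, was lower, at 121, 130.0 and 115 TPM against 235, 263 and 253 TPM, and fell by 0.94 in SPF mice (limma adjusted p = 1.55e-06). Maf and Prdm1, transcription factors that drive Il10, overlapped between the sets as deposited and were higher in the Lag3-high set without overlap under median of ratios. Maf was at 978, 890.0 and 979 TPM against 938, 827 and 943 TPM, a difference of 0.07 that was 0.51 under that scaling. Prdm1 was at 81.6, 105 and 114 TPM against 77.7, 89.7 and 88.1 TPM, a difference of 0.22 that was 0.65. In SPF mice Maf rose by 0.27 and Prdm1 by 0.49 (limma adjusted p = 0.00596 and 0.00114).

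**Figure D2:**
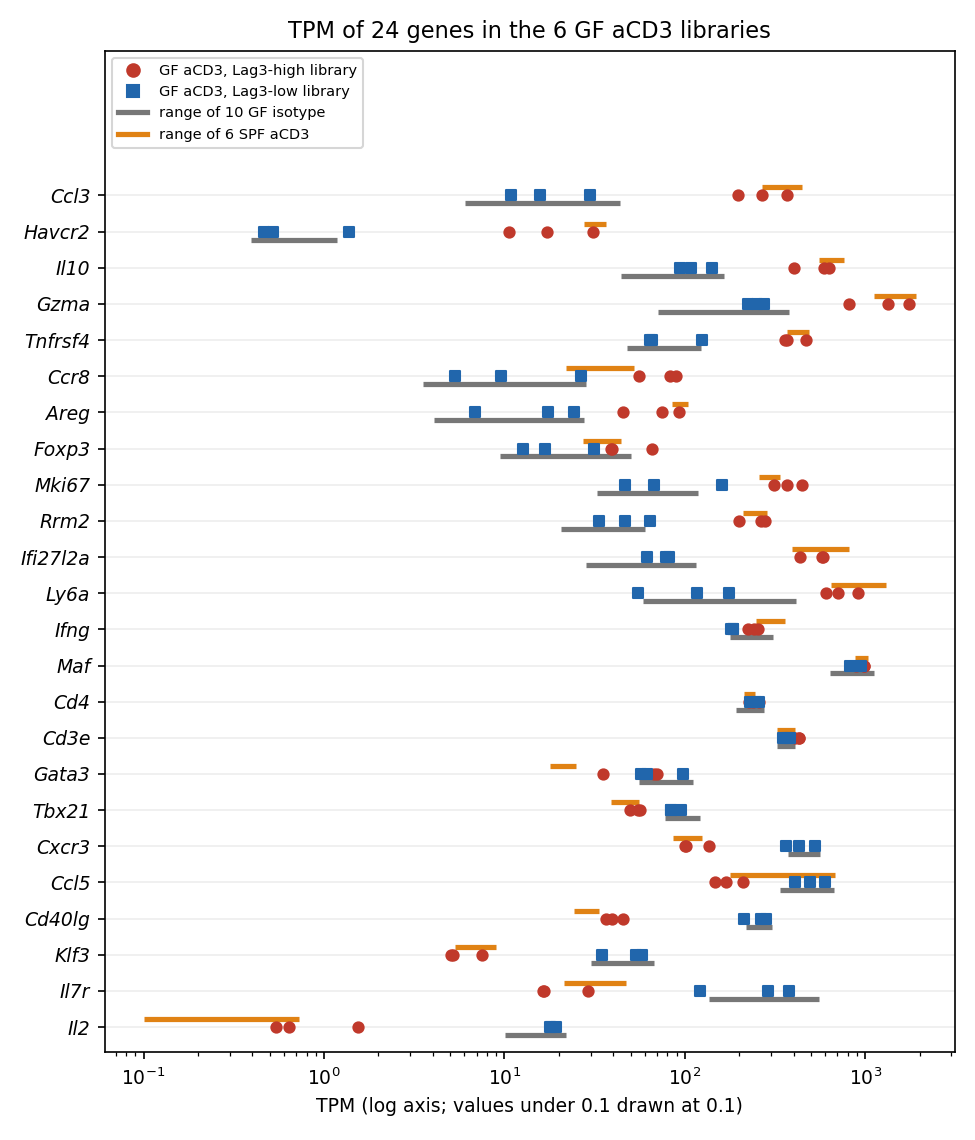
TPM on a log axis of 24 genes in the 3 Lag3-high (red circles) and 3 Lag3-low (blue squares) libraries, with grey bars for the range of 10 GF isotype libraries and orange bars for the range of 6 SPF aCD3 libraries. Blue squares mostly lie on the grey bars and red circles near the orange ones, while Cd4 and Maf show the 2 sets together.

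Other inhibitory receptors went both ways. Of 13 tested co-inhibitory receptor genes, Lag3 not among them, 6 were higher and 4 lower in the Lag3-high set. Over all tested genes 12% were higher and 51% lower. The median difference of the list was 0.01 (0.39 under median of ratios). In SPF mice 6 rose and 4 fell, against 14.1% and 51% of all tested genes. Havcr2 (NM_134250, chromosome 11, 46454931 to 46481254), which encodes the inhibitory receptor Tim-3, was at 10.6, 17.2 and 30.8 TPM in the Lag3-high set and at 0.462, 1.37 and 0.521 TPM in the Lag3-low set, 3.44 apart. M5 had the highest value and M1 the lowest within the Lag3-high set, whose range did not reach down to the Lag3-low set. In SPF mice Havcr2 rose by 4.08 (SE 0.11, limma adjusted p = 1.05e-09). Tigit, a receptor that competes with Cd226 for its ligands, was at 99.1, 111 and 142 TPM against 63.01, 53.5 and 49.7 TPM. Klrg1, a receptor for cadherins, was at 9.95, 9.53 and 5.29 TPM against 0.943, 3.24 and 1.68 TPM, 1.68 apart. The GF isotype range of Klrg1, 0.469 to 9.79 TPM, held each of these values but that of M1. Its SPF fold change of 0.05 did not pass (limma adjusted p = 0.801). Cd160, a receptor for HVEM, was lower in the Lag3-high set, at 32.5, 27.1 and 22.1 TPM against 63.2, 50.4 and 59.9 TPM, and fell by 1.40 in SPF mice (limma adjusted p = 1.02e-06).

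Regulatory T cell genes were mostly higher in the Lag3-high set, 10 of 12 tested, where 12% of all tested genes were higher. Of the 12, 1 was lower, and the median difference was 1.18. In SPF mice 10 rose and 1 fell, against 14.1% and 51% of all tested genes. Foxp3 (NM_001199348, chromosome X, 7580483 to 7595243), the defining transcription factor of regulatory T cells, was at 39.5, 65.7 and 39.2 TPM in the Lag3-high set and 12.7, 31.5 and 16.8 TPM in the Lag3-low set. The nearest values were M5 and M3, and the GF isotype range of 9.47 to 50.1 TPM holds 5 of the 6 values, all but M2. In SPF mice it rose by 0.53 (SE 0.12, limma adjusted p = 0.00274), and in a fit over all 28 libraries the fold change was the same and did not pass (limma adjusted p = 0.181). Tnfrsf4, the costimulatory receptor OX40, was at 358, 468 and 368 TPM against 64.4, 125 and 66.02 TPM, and rose in SPF mice by 2.62 (limma adjusted p = 8.84e-09). Lrrc32, which holds latent TGF-beta on the surface of regulatory T cells, was at 10.3, 12.4 and 5.97 TPM against 0.758, 4.75 and 1.401 TPM. For Lrrc32, M5 of the Lag3-high set lay inside the GF isotype range of 0.862 to 8.15 TPM. Itgae, an integrin that binds epithelial cadherin, was the member lower in the Lag3-high set, at 11.5, 11.1 and 10.3 TPM against 23.96, 25.98 and 25.7 TPM. It was also the one that fell in SPF mice (-0.69, limma adjusted p = 0.023), but that call was lost in 9 alternatives. Its adjusted p was 0.359 under median of ratios, 0.0703 with a replicate block, 0.0588 in a limma fit over all 28 libraries, 0.0521 with no filter on low values, and 0.0545 and 0.0538 without SPF isotype F1 or F3 (limma).

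Ccr8 (NM_007720, chromosome 9, 120092133 to 120094906), a chemokine receptor of type 2 and tissue regulatory T cells, was at 88.9, 82.9 and 55.4 TPM in the Lag3-high set and 5.31, 26.7 and 9.61 TPM in the Lag3-low set. All 3 Lag3-high values were above the SPF aCD3 range of 21.8 to 52.2 TPM. Ccl1, the ligand of Ccr8, was at 13.8, 10.7 and 11.7 TPM against 0.407, 4.34 and 2.66 TPM. The Lag3-high values lay above the SPF aCD3 range of 0.943 to 6.16 TPM. The GF isotype range of 0.261 to 10.6 TPM ended just under the lowest of them. The SPF fold change of Ccl1, 0.42, did not pass (limma adjusted p = 0.38). Of the 7 type 2 genes tested 4 were higher and 0 lower in the Lag3-high set, against 12% and 51% of all tested genes. The median difference was 1.09. In SPF mice 2 rose and 1 fell, against 14.1% and 51% of all tested genes. Gata3, the type 2 transcription factor, overlapped between the sets at 70.1, 67.3 and 35.3 TPM against 56.9, 98.2 and 61.5 TPM; its difference of -0.34 became 0.09 under median of ratios. In SPF mice Gata3 fell by 1.21 (limma adjusted p = 1.13e-06), to 17.9 to 24.99 TPM, below all 6 GF aCD3 libraries.

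Genes of cell division were higher in the Lag3-high set throughout. All 33 DNA replication genes and all 30 mitosis genes tested were higher without overlap, against 12% of all tested genes. Their median differences were 1.60 and 2.06. Every gene of both lists rose in SPF mice, against 14.1% of all tested genes. Of 67 histone genes tested 65 were higher and 0 lower, with a median difference of 2.14, and 66 rose and 1 fell in SPF mice. Histone genes are near-identical copies, so reads may be divided between them. Mki67 (NM_001081117, chromosome 7, 135689788 to 135716379), a protein of dividing cells, was at 368, 447 and 311 TPM in the Lag3-high set and 46.5, 159.7 and 67.6 TPM in the Lag3-low set. M3 was the highest of the Lag3-low set, above the GF isotype range of 32.7 to 118 TPM, and still below the lowest Lag3-high library. Birc5 and Aurkb, of the chromosomal passenger complex that guides chromosome separation, were at 74.2, 77.2 and 87.3 and 58.9, 58.3 and 50.6 TPM in the Lag3-high set. In the Lag3-low set they were at 9.06, 16.9 and 10.6 and 6.17, 16.96 and 6.44 TPM. Ccna2, the cyclin of S phase and mitosis, was at 187, 226 and 188 TPM against 23.4, 54.7 and 30.8 TPM. Rrm2, a subunit of the enzyme that makes deoxynucleotides, was at 199, 266 and 277 TPM against 33.5, 64.2 and 46.6 TPM, and Mcm10, a replication initiation factor, at 16.9, 17.96 and 18.6 TPM against 2.04, 4.61 and 2.71 TPM. In SPF mice Mki67 rose by 2.54 (limma adjusted p = 3.81e-08) and Rrm2 by 3.31 (limma adjusted p = 5.56e-09).

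Promoters of these genes were read from RefSeq sequences of build GRCm38.p6, which held 28 of the 33 replication genes. Within the 250 bases before the start, on both strands, the E2F letters TTTCCCGC or TTTGGCGC occurred in 5 of 28 (17.9%), against 1.51% of 27025 genes and 3.01% of the 9194 tested genes with a promoter. E2F factors switch on replication genes at the entry into S phase. The CCAAT letters, bound by the factor NF-Y, occurred in 20 of 26 mitosis genes (76.9%), against 37.49% of all genes and 40.45% of tested ones. A match is a description of letters and not of binding. The 60 bases around the match are shown for 3 replication genes that were higher in the Lag3-high set, with the matched letters in capitals as they read on the strand of the gene.
Cdc6 (chr11:98907987-98908046, + strand): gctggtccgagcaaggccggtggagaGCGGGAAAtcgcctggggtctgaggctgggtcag
Mcm7 (chr5:138172015-138172074, - strand): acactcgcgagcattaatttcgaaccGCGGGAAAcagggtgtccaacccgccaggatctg
Mcm5 (chr8:75109334-75109393, + strand): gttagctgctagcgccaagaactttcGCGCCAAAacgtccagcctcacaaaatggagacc

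Cdc6 loads the replicative helicase onto DNA, and was at 22.9, 27.4 and 29.1 TPM in the Lag3-high set and 3.57, 6.93 and 4.43 TPM in the Lag3-low set. Mcm7 and Mcm5 are subunits of that helicase. Mcm7 was at 146, 162 and 165 TPM against 35.3, 49.5 and 41.00 TPM, and Mcm5 at 62.5, 72.3 and 78.4 TPM against 20.7, 25.3 and 16.6 TPM. All 3 rose in SPF mice, by 2.84, 1.91 and 1.93, with limma adjusted p of 5.56e-09, 4.65e-09 and 2.39e-07. These 2 helicase genes were chosen for their promoters after their values were seen.

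Interferon-stimulated genes were higher in the Lag3-high set for 21 of 31 tested and lower for 2, against 12% and 51% of all tested genes. The median difference was 0.85. In SPF mice 22 rose and 2 fell, against 14.1% and 51% of all tested genes. Ifi27l2a, an interferon-induced gene, was at 574, 437 and 583 TPM against 81.7, 78.9 and 61.3 TPM, and Ifitm3, a membrane protein that blocks virus entry, at 45.8, 61.8 and 87.9 TPM against 11.1, 3.44 and 7.92 TPM. For Ifitm3 the Lag3-high values lay below the SPF aCD3 range of 151 to 300.1 TPM. Ly6a (NM_010738, chromosome 15, 74994877 to 74998031), the surface antigen Sca-1, was at 602, 704 and 915 TPM against 174, 55.03 and 116 TPM, and its relative Ly6c1 at 31.5, 25.1 and 21.7 TPM against 1.34, 0.922 and 1.195 TPM. Both rose in SPF mice by 2.81 and 3.51 (limma adjusted p = 4.16e-07 and 1.81e-08).

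The interferon response element, read as GAAA, 2 bases of any kind and GAAA, was searched in the same windows. It occurred in 10 of the 21 list genes with a promoter (47.6%), against 3.46% of 27025 genes and 3.36% of tested ones. Of the 14 list genes with a promoter that were higher in the Lag3-high set, 8 held it. The 60 bases around a match are shown for 3 of them, since each of these promoters holds more than 1 overlapping or nearby match; capitals mark 1 match as it reads on the strand of the gene.
Isg15 (chr4:156200851-156200910, - strand): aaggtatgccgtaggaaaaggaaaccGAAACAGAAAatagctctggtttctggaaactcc
Bst2 (chr8:71537563-71537622, - strand): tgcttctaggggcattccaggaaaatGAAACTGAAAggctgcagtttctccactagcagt
Ifit1 (chr19:34640778-34640837, + strand): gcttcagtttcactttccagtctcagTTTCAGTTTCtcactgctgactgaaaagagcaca

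Isg15, a ubiquitin-like modifier, was at 109, 86.7 and 125 TPM in the Lag3-high set and 52.4, 56.3 and 45.9 TPM in the Lag3-low set. Bst2, which tethers budding virus to the cell, was at 96.5, 88.8 and 88.6 TPM against 31.7, 37.9 and 27.9 TPM, and Ifit1, which binds viral RNA, at 34.3, 31.4 and 30.2 TPM against 16.9, 16.4 and 13.2 TPM. In each of the 3 the sets did not overlap. In SPF mice Bst2 rose by 1.93 (limma adjusted p = 0.000278), Isg15 by 1.44 (limma adjusted p = 0.000305) and Ifit1 by 1.36 (limma adjusted p = 0.000429). These 3 genes were chosen for their promoters after their values were seen.

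Of 13 cytotoxic genes 6 were higher and 6 lower in the Lag3-high set, with a median difference of -0.68. Over all tested genes 12% were higher and 51% lower without overlap, so the count of lower genes was near that share. Scaling by median of ratios gave 6 higher and 3 lower, with a median of -0.267. In SPF mice 6 rose and 3 fell, against 14.1% and 51% of all tested genes. The SPF median was 0.324, of the opposite sign. Within sample numbers 25 to 33 the median difference between the sets was 0.34 and within 48 to 54 it was -0.32, so its sign depended on the libraries compared. Gzma (NM_010370, chromosome 13, 113093824 to 113100981), a granule protease, was at 812, 1333 and 1735 TPM in the Lag3-high set and 251, 223 and 274 TPM in the Lag3-low set, with M1 lowest and M5 highest among the former. In SPF mice it rose by 3.39 (SE 0.25, limma adjusted p = 4.45e-07). Fasl, the death ligand that engages Fas, was lower, at 56.9, 59.8 and 65.02 TPM against 266, 156 and 247 TPM, and fell by 1.53 in SPF mice (limma adjusted p = 6.47e-07). Prf1, the pore-forming protein perforin, was at 13.7, 24.4 and 40.5 TPM against 47.1, 47.8 and 60.4 TPM, and Ccl5, a chemokine stored with granules, at 147, 169.8 and 211 TPM against 599.6, 408 and 492 TPM. Neither passed in SPF mice, where the fold changes were 0.04 (limma adjusted p = 0.714) and -0.21 (limma adjusted p = 0.46). Under median of ratios the difference between the sets in Prf1 was -0.65 with overlap, and its SPF fold change of 0.45 passed as higher (limma adjusted p = 0.00915). Prf1 was named after its values were seen.

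Of 23 genes that mark recent T cell receptor signalling, 0 were higher in the Lag3-high set, 12 were lower and 11 overlapped, with a median difference of -0.70. That count is near the 51% of all tested genes that were lower without overlap, and under median of ratios 2 were higher and 9 lower, with a median of -0.27. In SPF mice 2 rose and 17 fell, where 51% of all tested genes fell. Il2 (NM_008366, chromosome 3, 37120716 to 37125954), the T cell growth factor, was at 1.54, 0.545 and 0.637 TPM in the Lag3-high set and 18.1, 19.3 and 17.9 TPM in the Lag3-low set. Cd40lg, which helps B cells and dendritic cells, was at 45.6, 39.3 and 36.4 TPM against 266, 212 and 282 TPM. The Lag3-low values of Il2 lay inside the GF isotype range of 10.04 to 21.9 TPM, and for Cd40lg only M3 lay under that range, 218 to 302 TPM. Nr4a3, a nuclear receptor induced by receptor signals, was at 54.7, 43.6 and 26.7 TPM against 168, 225 and 164 TPM, with M3 above the GF isotype range of 140.0 to 205 TPM. Cd69, an early activation and retention marker, was at 285, 274 and 189 TPM against 485, 659 and 515 TPM. All 4 fell in SPF mice, with log2 fold changes of -3.74, -2.88, -2.39 and -1.57 and limma adjusted p of 1.89e-08, 7.69e-09, 4.4e-07 and 1.44e-08.

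Of 13 genes of the T cell receptor complex and its signalling 2 were higher and 7 lower, a share near the 51% of all tested genes that were lower, with a median of -0.37. Under median of ratios 5 were higher and 5 lower, with a median of 0.07. In SPF mice 2 rose and 8 fell. Zap70, the kinase recruited to the receptor, was at 384, 412 and 339.5 TPM in the Lag3-high set against 254, 281 and 264 TPM. Cd3e, the chain that aCD3 antibodies commonly bind, was at 426, 409 and 430.5 TPM against 384, 350.4 and 368 TPM. Cd4 was at 257, 239 and 226 TPM against 228, 249 and 258 TPM, which overlapped, and its difference of -0.03 became 0.41 without overlap under median of ratios. Thy1, which encodes the sorting antigen CD90, was lower in the Lag3-high set, at 274, 268 and 309 TPM against 613, 449 and 533 TPM, and so was Ptprc, which encodes CD45, at 93.7, 87.4 and 84.1 TPM against 141, 165 and 156 TPM. These differences of -0.90 and -0.79 were -0.46 with overlap and -0.36 without under median of ratios. Both genes fell in SPF mice (limma adjusted p = 0.000353 and 0.000114), a call lost for Thy1 under median of ratios (limma adjusted p = 0.2215). In SPF mice Zap70 rose by 0.51 (limma adjusted p = 0.000336), while Cd3e did not pass as deposited (0.19, limma adjusted p = 0.0675) and passed as higher under median of ratios (0.60, limma adjusted p = 1.298e-05).

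Of 10 Th1 genes 1 was higher and 8 lower in the Lag3-high set, with a median difference of -0.77, where 51% of all tested genes were lower. Under median of ratios 2 were higher and 6 lower, with a median of -0.34. In SPF mice 2 rose and 8 fell, where 51% of all tested genes fell. The 1 higher gene was Ifng, the Th1 cytokine, at 224, 255 and 243 TPM against 184, 184 and 180.1 TPM, all 6 values inside the GF isotype range of 177 to 306 TPM. Tbx21, which encodes T-bet, the reported gene of these mice, was at 54.8, 56.2 and 49.4 TPM against 95.1, 83.6 and 83.6 TPM and fell by 0.48 in SPF mice (limma adjusted p = 0.00358), a call that was lost under median of ratios (limma adjusted p = 0.486). Cxcr3 (NM_009910, chromosome X, 101731535 to 101734147), the Th1 chemokine receptor, was at 137, 102 and 100.2 TPM against 523, 364 and 429.5 TPM. Il18r1, a receptor chain for IL-18, was at 30.5, 27.6 and 30.04 TPM against 60.7, 57.5 and 83.2 TPM. In SPF mice Ifng rose by 0.46 (limma adjusted p = 0.0066) and Cxcr3 fell by 1.89 (limma adjusted p = 1.07e-07). Of 9 Th17 genes 0 were higher and 2 lower, against 12% and 51% of all tested genes. Their median of -0.16 was 0.18 under median of ratios, and 3 rose and 3 fell in SPF mice. Rora, a Th17 transcription factor, was at 33.2, 31.4 and 24.8 TPM against 55.5, 112 and 80.8 TPM.

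Genes of gut homing and residency were lower in the Lag3-high set for 10 of 13 tested and higher for 0, with a median of -0.79, against 51% of all tested genes that were lower. Under median of ratios 6 were lower and 1 higher, with a median of -0.36. In SPF mice 9 fell and 0 rose, where 51% of all tested genes fell. Klf3, a Kruppel-like transcriptional repressor, was at 5.07, 5.19 and 7.48 TPM against 58.2, 34.6 and 53.5 TPM, and Itga1, a collagen-binding integrin of resident cells, at 1.19, 1.28 and 2.44 TPM against 11.9, 5.66 and 9.18 TPM. Il7r (NM_008372, chromosome 15, 9506159 to 9529876), the receptor for the survival cytokine IL-7, was at 16.4, 16.7 and 28.96 TPM in the Lag3-high set and 377, 122 and 287 TPM in the Lag3-low set, a difference of -3.50. M3 was the lowest of the Lag3-low set and lay just under the GF isotype range of 136 to 551 TPM. In SPF mice Il7r fell by 3.46 (SE 0.14, limma adjusted p = 7.69e-09) and Klf3 fell by 2.02 (limma adjusted p = 1.85e-07).

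A few genes varied widely inside the Lag3-high set. Ccr7, a homing receptor of naive and central memory cells, was at 43.9, 26.4 and 9.39 TPM, against 2.24, 3.28 and 2.38 TPM in the Lag3-low set. Tcf7, a transcription factor of memory and naive cells, was at 50.3, 26.8 and 7.299 TPM against 63.4, 62.4 and 57.2 TPM, and Xcl1, a chemokine for dendritic cells, at 87.8, 53.1 and 16.5 TPM against 93.2, 122 and 88.9 TPM. M1 was the highest and M5 the lowest of the Lag3-high libraries for all 3. SPF aCD3 libraries ranged from 18.6 to 76.8 TPM for Ccr7 and from 13.1 to 53.3 TPM for Tcf7. For Xcl1 they ranged from 4.59 to 10.2 TPM, below all 6 GF aCD3 libraries, and in SPF mice Xcl1 fell by 3.36 (limma adjusted p = 3.75e-08). Of the 10 naive and central memory genes tested 4 were higher and 2 lower, against 12% and 51% of all tested genes. Their median difference of 0.62 was 0.36 without F1, and 0.24 within each block of sample numbers. In SPF mice 4 of them rose and 2 fell, against 14.1% and 51% of all tested genes.

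Metabolic lists were mixed, where 12% of all tested genes were higher and 51% lower without overlap. In SPF mice 14.1% of all tested genes rose and 51% fell. Of 15 glycolysis genes 7 were higher and 5 lower in the Lag3-high set (median 0.03), and the same counts rose and fell in SPF mice. After median of ratios scaling 9 were higher and 2 lower, with a median of 0.455. Tpi1, which interconverts the triose phosphates, was at 132, 133 and 113 TPM against 37.02, 36.8 and 34.5 TPM, and Ldha, which makes lactate, at 564, 729.7 and 539 TPM against 214, 258 and 239.8 TPM. Pfkp, the platelet form of phosphofructokinase, was lower, at 19.8, 18.7 and 15.1 TPM against 31.3, 40.4 and 30.4 TPM. Of 17 ribosome biogenesis genes 2 were higher and 8 lower, with a median of -0.23, and 0 rose and 8 fell in SPF mice. Under median of ratios 8 were higher and 2 lower, with a median of 0.20. Of 18 cholesterol and fatty acid synthesis genes 1 was higher and 12 lower, with a median of -0.42. In SPF mice 4 of the 18 rose and 9 fell. After median of ratios scaling 4 were higher and 6 lower, with a median of -0.06. No direction is given for these 2 lists.

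Metallothionein and heat shock genes are given with their SPF levels, and the difference between the GF and SPF values was not tested. Mt1 and Mt2 encode metallothioneins, small proteins that bind zinc. Mt1 was at 13.04, 17.7 and 14.6 TPM in the Lag3-high set and 5.17, 11.7 and 2.46 TPM in the Lag3-low set, and Mt2 at 9.28, 10.03 and 11.3 TPM against 1.35, 1.86 and 1.604 TPM. In SPF aCD3 they were at 59.7 to 101 TPM and 20.7 to 53.3 TPM, above all 6 GF aCD3 libraries, and rose by 4.83 and 4.11 (limma adjusted p = 7.33e-06 and 5.69e-07). Of the 6 genes of that list 3 were higher and 3 lower, against 12% and 51% of all tested genes. The lower ones were the zinc transporters Slc30a1 and Slc39a10 and the metal-responsive factor Mtf1. Under median of ratios 3 were higher and 1 lower. Mtf1 (-0.16) and Slc39a10 (0.02) overlapped there, and Slc39a10 turned direction. In SPF mice 3 rose and 2 fell. The median of 0.47 had no stable sign: it was -0.36 with genes at 5 TPM or more, -0.0024 within sample numbers 25 to 33 and 0.25 without M4. Hspa1b, an inducible heat shock chaperone, was at 491, 460.0 and 231 TPM against 494, 1271 and 751 TPM, and SPF isotype ranged from 3295 to 7044 TPM, above all 6. Of 12 heat shock genes 0 were higher and 4 lower, with a median of -0.70 (0 and 1 under median of ratios, with a median of -0.37), and 0 rose and 6 fell in SPF mice. Neither count of lower genes was above the 51% of all tested genes that were lower in that comparison.

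**Figure D3:**
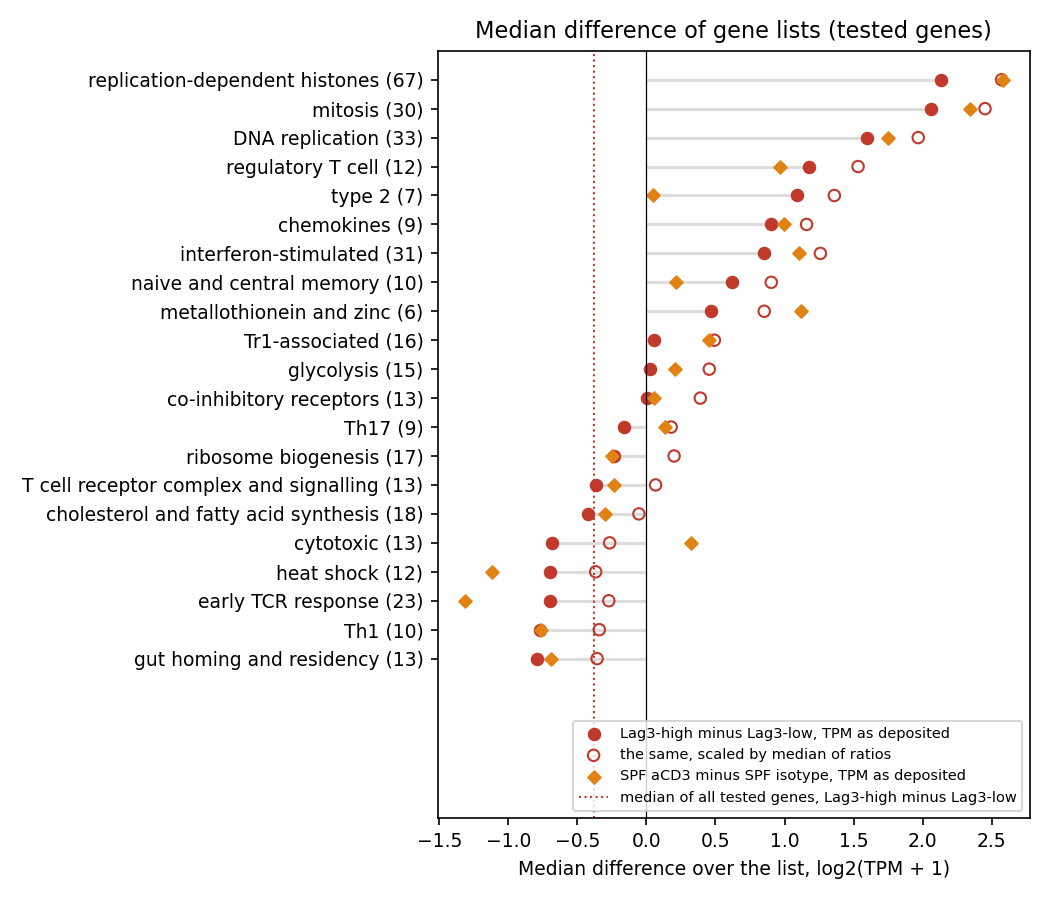
Median difference of log2(TPM + 1) over 21 gene lists (tested genes in brackets) for Lag3-high minus Lag3-low as deposited (filled circles), after median of ratios scaling (open circles) and for SPF aCD3 minus isotype (diamonds); the dotted line is the median of all tested genes, -0.38. Histone, mitosis and DNA replication lists are farthest to the right on all 3 scales, and gut homing, Th1, early TCR response and heat shock lists are to the left on all 3.

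The highest and lowest differences of the whole table held further genes. Among the 12 highest, Ptms, a small nuclear protein, was at 269, 267 and 223 TPM against 26.9, 39.7 and 30.7 TPM, and Lgals7, a galectin, at 49.5, 25.1 and 21.1 TPM against 4.05, 4.18 and 2.41 TPM. Tnip3, an inhibitor of NF-kB signalling, was at 5.53, 5.36 and 9.79 TPM against 0.147, 0.101 and 0.122 TPM, all 3 low values inside the GF isotype range. Sst, the hormone somatostatin, was at 4.07, 12.8 and 8.99 TPM against 0, 0.698 and 0 TPM, which rests on 7, 34 and 17 reads in the Lag3-high set. Among the 12 lowest, Peg13, an imprinted noncoding RNA, was at 11.2, 6.55 and 10.04 TPM against 120.5, 76.1 and 98.8 TPM, and B3galt5, a galactosyltransferase, at 1.36, 1.55 and 2.62 TPM against 24.7, 17.8 and 24.9 TPM. Clec2i, a lectin-like ligand, was at 5.82, 2.38 and 0.82 TPM against 26.2, 24.3 and 34.97 TPM. The pseudogene Hmga2-ps1 was at 0.972, 1.89 and 0 TPM against 19.96, 36.2 and 16.1 TPM. Cd7, a T cell surface protein named after its values were seen, was at 26.6, 21.6 and 37.4 TPM against 51.2, 106 and 104 TPM. For Cd7 the sets overlapped under median of ratios. Its SPF fold change of 0.13 did not pass (limma adjusted p = 0.713).

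Transcripts of other cell types also differed between the sets, and their part in the results was not tested. Summed over 13 pancreatic acinar markers, TPM was 9, 53.2 and 2.77 in the Lag3-high set and 150.4, 829.6 and 45.2 in the Lag3-low set, with M3 highest and the GF isotype range at 2.49 to 111.9. The sets overlapped for that sum, and Amy2a5 was at 0 in all 6 libraries. Acinar genes are among the 12 lowest of the whole table: the colipase gene Clps was at 0, 4.47 and 0 TPM against 12.8, 46.7 and 6.85 TPM, the trypsin gene Try5 at 0.844, 1.92 and 0 TPM against 8.84, 73.5 and 3.94 TPM, and the chymotrypsin-like gene Ctrl at 1.18, 4.08 and 1.79 TPM against 22.3, 113 and 7.74 TPM. Rnase1, the secreted pancreatic ribonuclease, was at 1.66, 6.200 and 0 TPM against 19.96, 170.0 and 6.900 TPM. For Rnase1 the sets overlapped under median of ratios. None of these 4 passed in SPF mice (limma adjusted p = 0.76, 0.687, 0.203 and 0.0837). Rnase1 passed as higher in SPF aCD3 with limma-voom on recovered reads (limma-voom adjusted p = 0.0125) and without SPF aCD3 library M2 (limma adjusted p = 0.0482), and Ctrl passed as lower without SPF aCD3 library M1 (limma adjusted p = 0.0358). Trypsin genes are close copies, so their reads may be divided.

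Summed over 11 B and plasma cell markers, TPM was 11.3, 10.95 and 9.21 in the Lag3-high set and 21.8, 102.5 and 34.0 in the Lag3-low set, with Mzb1 and Pax5 at 0 in all 3 Lag3-high libraries. Jchain, the joining chain of secreted antibody and the lowest gene of the whole table, was at 0.181, 1.06 and 0.991 TPM against 16.95, 89.3 and 25.4 TPM and fell by 6.53 in SPF mice (limma adjusted p = 1.05e-09). Without Jchain the other 10 markers summed to 11.11, 9.89 and 8.22 TPM against 4.85, 13.27 and 8.61 TPM, which overlapped. Of the 5 tested members Cd79b and Pou2af1 were higher in the Lag3-high set and Jchain alone was lower. Over 14 epithelial markers TPM was 8.82, 10.9 and 9.95 against 37.8, 13.5 and 46.6, with Fabp1, Apoa1, Apoa4 and Olfm4 at 0 in the Lag3-high set. The epithelial sums overlapped under median of ratios. Over 11 stromal and endothelial markers it was 5.14, 3.70 and 4.27 against 14.5, 9.59 and 12.2, with Col6a1 at 0 in the Lag3-high set. Without Pecam1 the sums were 0.96, 0.55 and 1.47 TPM against 5.83, 1.41 and 3.40 TPM, and M5 of the Lag3-high set lay above M3. Over 6 natural killer and innate lymphoid markers it was 5.59, 5.55 and 6.35 against 21.3, 13.6 and 17.0, with Klra8 and Gata2 at 0 in the Lag3-high set; Klrb1c, the NK1.1 antigen, made up most of it in the Lag3-low set, at 2.17, 1.59 and 2.498 TPM against 18.7, 12.4 and 14.99 TPM. Without Klrb1c the order turned, with sums over the other 5 markers of 3.42, 3.96 and 3.85 TPM against 2.58, 1.24 and 2.02 TPM. Apoe, a lipid carrier of macrophages and other cells, was at 0.681, 0.442 and 0.62 TPM against 27.4, 3.27 and 17.3 TPM.

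Over 12 myeloid markers the sum was higher in the Lag3-high set, 48.3, 49.1 and 60.5 TPM in the Lag3-high set against 26.4, 10.6 and 22.3 TPM. Cd68, a lysosomal protein, made up most of the former at 44.2, 46.7 and 57.99 TPM against 13.1, 8.33 and 9.34 TPM, while C1qa, C1qb, C1qc and Clec9a were at 0 in the Lag3-high set and Cd14 at 0 in the Lag3-low set. Without Cd68 the other 11 markers summed to 4.07, 2.38 and 2.53 TPM against 13.27, 2.29 and 12.98 TPM, which overlapped with M3 lowest. The 2 CD8 markers summed to 13.0, 9.59 and 12.8 TPM against 3.47, 5.53 and 7.56 TPM. Without Cd8a the other marker was at 1.90, 0.81 and 0.27 TPM against 0.57, 0.93 and 0.93 TPM, which overlapped. The 5 erythroid markers summed to 1.61, 1.90 and 1.06 TPM against 1.85, 2.05 and 1.80 TPM. The 7 T cell markers, which include Cd3e and Cd4, summed to 1669, 1515 and 1575 TPM against 1878, 1714 and 1842 TPM, and this sum was above every other marker sum in all 6 libraries. Its order depended on scaling: under median of ratios it was 1878, 1703 and 1903 against 1653, 1389 and 1589. Of its 7 genes 1 was higher and 2 lower as deposited, and 4 higher and 1 lower under median of ratios.

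**Figure D4:**
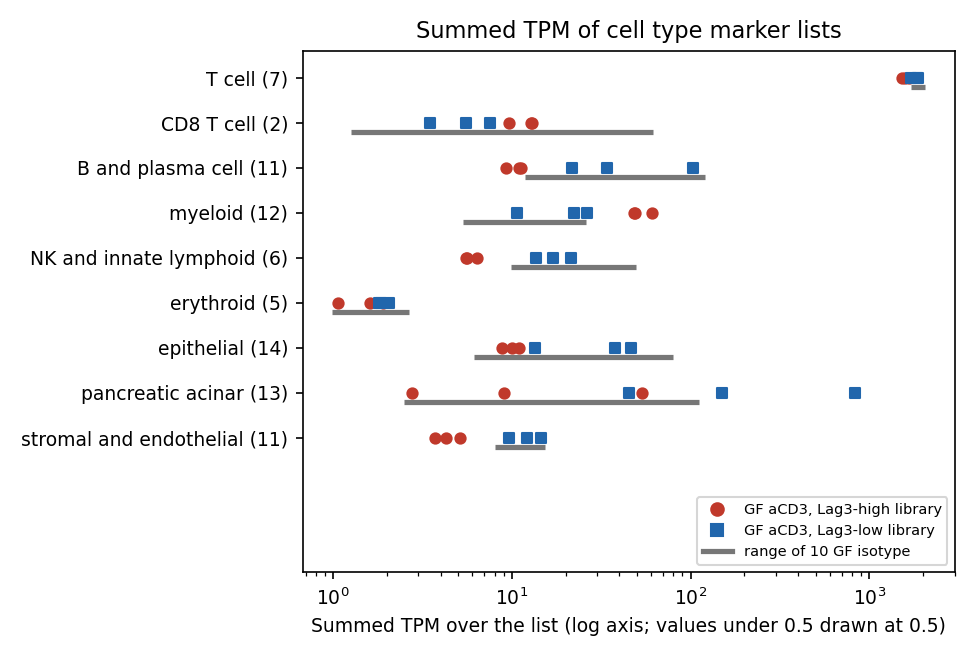
Summed TPM on a log axis over 9 marker lists (number of genes in brackets) in the Lag3-high (red circles) and Lag3-low (blue squares) libraries, with grey bars for the range of 10 GF isotype libraries. T cell markers range from 1515 to 1878 TPM, and acinar markers range from 2.77 to 829.6 TPM.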

How the data were processed

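RNA of sorted CD4+ T cells was sequenced in 28 libraries with a total RNA kit, per the labels, although a label also names polyA RNA. Per the file headers, the authors computed the deposited TPM with HOMER over RefSeq genes of mm10, and in 99.24% of table lines the length is the whole genomic span. Aligner version, strand and filters are not given in the sources used here. The table holds 26 TPM columns that match no sample and were not used. Reads were recovered from TPM times length, which gave whole reads (within 0.1) for 100.0% of low values checked, and counting error is the only error this depth shows. Genes at 1 TPM or more in at least 6 libraries were kept (12182 of 25124). Differences are of mean log2(TPM + 1), pseudocount 1, which understates low genes. SPF aCD3 was tested against SPF isotype in 12 libraries with limma 3.58.1 in R 4.3.3, with a trend and a sex term, and Benjamini-Hochberg adjustment at 0.05; it was tested on simulated data. Python 3.11.15, NumPy 2.4.6, pandas 2.3.3 were used for the rest. The named genes are a fixed set, up to 3 at each end of each list and 12 at each end of the table with a mean of at least 5 TPM and no overlap; 7 were added after their values were seen, and some are not reported here. The members and gene lists were chosen with earlier results of these data known. Alternatives were other pseudocounts, filters, scalings, fits and left-out libraries.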

Additional observations from a re-analysis of the deposited data

Results flagged for a closer look

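In 432 groups of values, 31 held a library far from the rest by Dixon's criterion. The chance rate of about 1 in 20 groups holds for independent, normally spread values. TPM near 0 and genes that vary together depart from that, so the 31 cannot be set against that rate. Within GF aCD3, M3 was the highest for Jchain (89.3 TPM, others 0.181 to 25.4), Rnase1 (170.0 TPM), Clps (46.7 TPM), Ctrl (113 TPM) and Try5 (73.5 TPM).

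Within SPF aCD3, F1 was the lowest for Ccl3 (266 TPM, others 394 to 443) and Ifi27l2a (391.6 TPM), and the highest for Clec2i (4.33 TPM) and Tcf7 (53.3 TPM). M1 was the highest for Rnase1 (9.28 TPM), Clps (1.71 TPM) and Try5 (3.14 TPM). M3 was the highest for Csf1 (23.1 TPM), F2 the highest for Cd4 (244 TPM) and M2 the lowest for Tpi1 (86.0 TPM).

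Within SPF isotype, the highest libraries were F1 for Sst (1.83 TPM), M2 for Rnase1 (0.664 TPM), M1 for Clps (0.841 TPM), F2 for Try5 (1.003 TPM) and M3 for Mt2 (3.43 TPM). F2 was the lowest for Bst2 (9.76 TPM). By mean log2(TPM + 1), F2 was the highest for the type 2 list (3.46) and the lowest for the metallothionein and zinc list (1.77).

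Within GF isotype, F3 was the highest for Rnase1 (18.8 TPM) and Try5 (5.96 TPM), and F2 for Mt1 (31.2 TPM) and Mt2 (20.95 TPM). F5 was the highest for Ifit1 (42.9 TPM) and the interferon-stimulated list (4.92 by mean log2(TPM + 1)), and F4 for the T cell receptor complex list (7.43) and for Ptprc (177.8 TPM, others 129.8 to 151.6).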

How the results depend on the processing

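The counts between the Lag3-high and Lag3-low sets moved with scaling and pseudocount. Genes at least 1 unit higher numbered 288 with a pseudocount of 5, 828 under median of ratios, 781 as depth-scaled reads per kilobase (chosen after seeing the data) and 1458 with no minimum difference. Genes lower numbered 2069 with a pseudocount of 0.1, 536 with 5, 450 under median of ratios, 498 as depth-scaled reads per kilobase and 6209 with no minimum. All 473 higher genes were also higher under median of ratios, while 450 of the 1340 lower genes were still at least 1 unit lower without overlap. Leaving out 1 GF aCD3 library gave 466 to 560 higher and 1256 to 1552 lower genes.

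In SPF mice, genes higher and lower numbered 3690 and 3644 under median of ratios, 3470 and 3811 as depth-scaled reads per kilobase, and 3529 and 3827 with limma-voom on recovered reads, the last 2 chosen after seeing the data. Without Rn45s and histones 2741 were higher. With a fold change of at least 1 unit, 1940 passed, 566 higher and 1374 lower. Leaving out 1 SPF library gave 1570 to 1774 higher and 5830 to 6563 lower, 7534 to 8198 in all. With a replicate block, 7722 genes passed (1651 higher). Deviations of same-numbered SPF libraries from their group means correlated at -0.031 to 0.103, which cannot settle whether the libraries were paired. The mean position of the Lag3-low set was 0.074 under median of ratios and 0.075 as depth-scaled reads per kilobase, and -0.013 to 0.031 with 1 SPF library left out, against 0.816 to 0.836 for the Lag3-high set.

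Reversed list medians were ribosome biogenesis (0.20 under median of ratios, 0.16 as depth-scaled reads per kilobase), T cell receptor complex (0.066 and 0.028), metallothionein (-0.36 with genes at 5 TPM, -0.0024 within numbers 25 to 33), Tr1-associated (-0.0705 within those numbers), cytotoxic (0.342 within those numbers, 0.0873 with genes at 5 TPM), Th17 (0.179 under median of ratios, 0.149 as depth-scaled reads per kilobase, 0.0208 without Rn45s and histones, 0.0272 with a pseudocount of 5, 0.792 within numbers 48 to 54, and -0.418 to 0.288 with 1 GF aCD3 library left out, above 0 without M1, M2 or M4), glycolysis (-0.0178 without M2) and co-inhibitory receptors (-0.147 to 0.194 with 1 GF aCD3 library left out, below 0 without M2, M3, M4 or M5). Leaving out 1 GF aCD3 library gave medians of 0.37 to 1.368 for chemokines, 0.356 to 0.89 for naive and central memory, -0.796 to -0.167 for cytotoxic and 0.251 to 0.706 for metallothionein genes, lowest without F1 for the first 2, nearest 0 without F1 for the third and lowest without M4 for the last. Regulatory T cell genes had a median of 0.76 within numbers 25 to 33 and type 2 genes 0.71 within 48 to 54. Cd3e also passed in SPF mice without Rn45s and histones (0.46), with limma-voom (0.57), in all 28 libraries (limma adjusted p = 0.0358) and without F1 of SPF aCD3 or F2 or M1 of SPF isotype (limma adjusted p = 0.0417 to 0.0467). Prf1 also passed without Rn45s and histones (0.31) and with limma-voom (0.42). The cause was not tested. The marker sums without 1 gene or under median of ratios were chosen after seeing the data. Genes near 0 TPM rest on few reads.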
